A study of Sus scrofa with 8 samples.

Results

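The genes described here are those of the fat cell: hormones, lipid droplet proteins, lipases, transporters, and the enzymes and transcription factors that make and store triglyceride. They were chosen by symbol from a list of 37, of which 34 had a row in the table of 31907 genes and 33 had enough counts to be tested among 19862 genes. ADRB3, AQP7 and CIDEA had no row under these symbols and are not analysed here. Skin of wild-type Yorkshire swine was biopsied in 2 pigs, called pig 14 and pig 13. IL-15, 200 ng in 100 µl of saline, was placed in the dermis at 4 sites, which were sampled 3 h later: sites 12c and 12d in pig 14 and, in pig 13, sites 12c and 12e. The 4 control biopsies came from skin that was not injected: sites 6b and 7e in pig 14 and, in pig 13, sites 6b and 7b. In sentences that list the sites of a pig, values keep these orders. The study sought genes that respond to IL-15, a cytokine that signals through JAK1 and JAK3. RNA came from whole biopsies, extracted with a kit for fatty tissue, and ribosomal RNA was removed.

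Fat cells of the skin lie in the subcutaneous layer below the dermis and around hair follicles. They take up fatty acids and glucose, use them to make triglyceride held in a droplet coated by perilipins, and release fatty acids again through lipases. PPARG and CEBPA drive the formation of fat cells, and SREBF1 and MLXIPL drive the enzymes of fatty acid synthesis. Several of these enzymes also serve the sebaceous gland and the epidermis, so the list mixes genes that mark fat cells with genes of lipid synthesis in other cells. In pigs adipose tissue is a main site of fatty acid synthesis.

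Libraries of injected sites held 28471089 to 36070107 counts and those of control sites 28730579 to 33567610 counts. Positions are those of the build Sscrofa11.1 as the files give them. Levels are in CPM, the counts of a gene as a rate of its library, after TMM scaling unless stated otherwise. Defining fat cell transcripts were counted in every biopsy, with at least 258 CPM of ADIPOQ and 2.05 CPM of LEP, as were the skin markers of basal and differentiated keratinocytes and of fibroblast matrix. The injected sites are all numbered 12 and the control sites 6 or 7, and there was no site with saline alone, so position, needle and cytokine cannot be told apart. The sites are not independent animals, and each p-value measures the spread between sites of these 2 pigs. In a whole biopsy, fewer fat cells and less RNA per fat cell cannot be told apart.

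No adipocyte or lipogenic gene was called different between injected and control sites, although the highest biopsy of a gene held 1.35 to 11.6 times the CPM of its lowest. Of the 33 tested genes, 0 were called higher or lower in injected biopsies by edgeR's quasi-likelihood test at a Benjamini-Hochberg adjusted p under 0.05, where 0.0352% of all genes were called higher and 0% lower. At an unadjusted p under 0.05 the count was also 0 of 33, against 4.54% of all genes (2.39% higher and 2.15% lower). DESeq2 called 0 of 33, against 0.31% of all genes (0.257% higher and 0.0535% lower). The log2 fold change, injected over control with the pig in the model, was above 0 for 27 of 33 genes, against 48.2% of all genes. Its median was 0.39, beside -0.0078 over all genes tested. Many of the 33 genes vary together across biopsies, so the count above 0 is not one of independent results. The values lay between -0.47 ± 0.45 for PCK1 and 1.05 ± 0.82 for CIDEC (log2 ± SE), and the adjusted p between 0.964 and 0.997. In 0 of 33 genes did all injected biopsies lie above all controls (1.15% of all genes), and in 0 of 33 did all lie below (0.916%).

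Which biopsies were rich in these transcripts was similar for many of the genes, though not for all. Relative to each gene's own mean over the 8 biopsies, the median of the 33 genes on the log2 scale was -0.53 at site 12c and 0.32 at site 12d of pig 14 and 0.35 and 0.55 at sites 12c and 12e of pig 13, all injected. In controls it was 0.068 at site 6b and 0.65 at site 7e of pig 14 and -0.71 and -0.60 at sites 6b and 7b of pig 13. Thus 1 injected biopsy, site 12c of pig 14, stood with the pig 13 controls at the low end, and 1 control, site 7e of pig 14, stood with the other injected biopsies at the high end. The control from site 7e held the highest value of 17 of 33 genes. The lowest value fell at site 12c of pig 14 for 11 genes, and in the pig 13 controls at site 6b for 9 and at site 7b for 10.

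**Figure D1:**
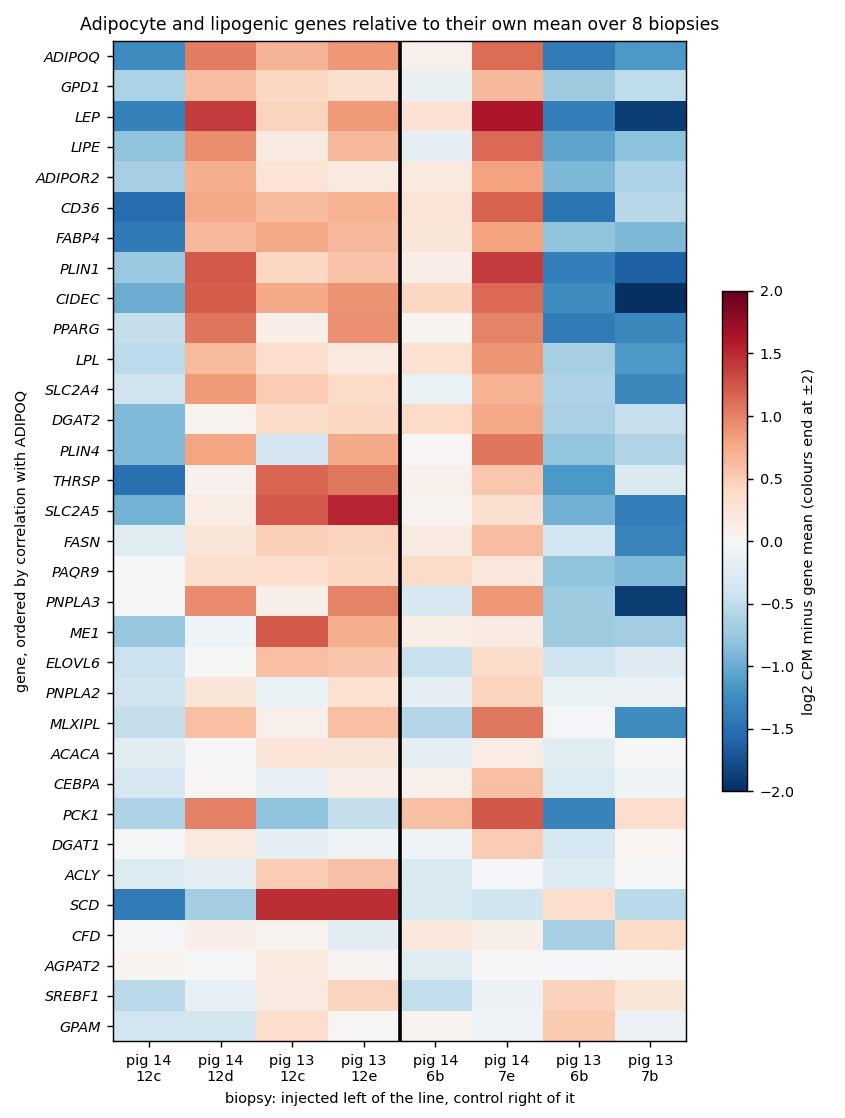
Log2 CPM of each of the 33 tested adipocyte and lipogenic genes minus its own mean over the 8 biopsies, with injected biopsies left of the line and controls right of it; genes are ordered by their correlation with ADIPOQ. In the upper rows site 12c of pig 14 and both pig 13 controls are low (blue) and site 7e of pig 14 is high (red), while SCD, SREBF1 and GPAM near the bottom follow other patterns.

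Among the hormones and secreted factors, ADIPOQ, which encodes adiponectin, was the most abundant transcript in CPM. ADIPOQ (ENSSSCG00000039103, chromosome 13, 124633684 to 124646648) had 283 and 1388 CPM in pig 14 and 1092 and 1243 CPM in pig 13 at injected sites, against 727 and 1477 CPM in pig 14 and 258 and 307 CPM in pig 13 at control sites. The groups overlapped, and the value at the injected site 12c of pig 14 lay beside those of the pig 13 controls. ADIPOQ averaged 1002 ± 494 CPM at injected sites and 692 ± 564 CPM at control sites (SD, n = 4 each), with a log2 fold change of 0.82 ± 0.75 (95% confidence interval -0.99 to 2.64). Without the injected pig 14 biopsy from site 12c it was 1.42 ± 0.42, and without the pig 13 control from site 6b 0.42 ± 0.85, neither called. LEP, the satiety hormone leptin made in proportion to fat mass, had 3.02 and 20.7 CPM in pig 14 and 10.6 and 14.0 CPM in pig 13 at injected sites, against 9.51 and 23.8 CPM in pig 14 and 2.96 and 2.05 CPM in pig 13 at control sites. LEP spanned the widest range of the tested genes, 11.6-fold between its lowest and highest biopsy, with the same sites high and low as for ADIPOQ and a log2 fold change of 0.83 ± 0.88. ADIPOR2, an adiponectin receptor, ran between 77.0 and 252 CPM and had 0.32 ± 0.40. CFD, the complement protease adipsin, went another way, with 240.4 and 269.6 CPM in pig 14 and 256 and 209 CPM in pig 13 at injected sites, against 284 and 267 CPM in pig 14 and 155 and 316 CPM in pig 13 at control sites. Its highest biopsy was the pig 13 control from site 7b, where ADIPOQ was low, and its log2 fold change was -0.064 ± 0.19. RETN, the gene of resistin, was not tested: its counts were 0 and 0 in pig 14 and 2 and 2 in pig 13 at injected sites, against 2 and 6 in pig 14 and 0 and 2 in pig 13 at control sites. In the 3 libraries with 0 counts of RETN the level could be at most 0.0907 to 0.110 CPM, taking 3 counts as the limit, which covers counting error only.

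Transcripts of the 3 lipid droplet coat proteins on the list followed ADIPOQ. PLIN1 (ENSSSCG00000001844, chromosome 7, 55235426 to 55250797), the perilipin that guards the droplet of fat cells against lipases, had 161 and 637 CPM in pig 14 and 359.5 and 404 CPM in pig 13 at injected sites, against 298 and 718 CPM in pig 14 and 105 and 87.5 CPM in pig 13 at control sites. CIDEC, which fuses droplets into one, had 14.5 and 66.7 CPM in pig 14 and 48.9 and 53.9 CPM in pig 13 at injected sites, against 38.3 and 63.5 CPM in pig 14 and 12.2 and 6.23 CPM in pig 13 at control sites. For both genes the pig 13 controls were the 2 lowest biopsies and the pig 14 sites 12d and 7e, 1 injected and 1 control, the 2 highest. Log2 fold changes were 0.82 ± 0.71 for PLIN1 and 1.05 ± 0.82 for CIDEC, with standard errors near the values themselves. PLIN4, a coat protein of small droplets, ran between 118 and 457 CPM and had 0.27 ± 0.55, which turned to -0.14 without the injected biopsy from site 12e of pig 13. Its annotated exons share 6.03% of its length with HDGFL2 on the other strand.

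Lipases gave a mixed picture. LIPE, the hormone-sensitive lipase of fat cells, had 73.4 and 245 CPM in pig 14 and 146 and 201 CPM in pig 13 at injected sites, against 114 and 282 CPM in pig 14 and 62.0 and 72.9 CPM in pig 13 at control sites, with the same sites high and the pig 13 controls lowest, as for PLIN1. PNPLA2, the lipase that starts triglyceride breakdown in most tissues, differed only 1.79-fold between its lowest and highest biopsy and had a log2 fold change of 0.017 ± 0.20 (95% confidence interval -0.42 to 0.46). The PNPLA2 sign turned without any of 5 single biopsies. PNPLA3, a relative that remodels droplet lipids, was low, at 6.91 and 13.4 CPM in pig 14 and 7.48 and 13.7 CPM in pig 13 at injected sites, against 5.50 and 12.6 CPM in pig 14 and 4.20 and 1.80 CPM in pig 13 at control sites, and had 0.97 ± 0.53.

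Genes of fatty acid and sugar uptake also varied with the site. FABP4 (ENSSSCG00000040681, chromosome 4, 55096404 to 55101897), the fatty acid carrier of the fat cell cytosol, had 64.8 and 271 CPM in pig 14 and 292 and 271 CPM in pig 13 at injected sites, against 205 and 301 CPM in pig 14 and 98.1 and 92.1 CPM in pig 13 at control sites. CD36, a fatty acid receptor also made by capillaries and macrophages, had 34.6 and 168 CPM in pig 14 and 155 and 162 CPM in pig 13 at injected sites, against 119 and 226 CPM in pig 14 and 36.2 and 67.7 CPM in pig 13 at control sites. In both genes the injected site 12c of pig 14 was far below the other injected biopsies, which lay close together, and was the lowest of all biopsies. Log2 fold changes were 0.49 ± 0.64 for FABP4 and 0.42 ± 0.75 for CD36. LPL, the lipase that frees fatty acids from blood lipoproteins, ran between 83.3 and 341 CPM with 0.35 ± 0.43, and SLC2A4, the insulin-regulated glucose transporter GLUT4, between 3.82 and 17.2 CPM with 0.69 ± 0.41. SLC2A5, the fructose transporter GLUT5, had 1.84 and 4.01 CPM in pig 14 and 8.54 and 10.5 CPM in pig 13 at injected sites, against 3.78 and 4.52 CPM in pig 14 and 1.81 and 1.34 CPM in pig 13 at control sites. Its injected pig 13 biopsies were higher than every other biopsy.

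**Figure D2:**
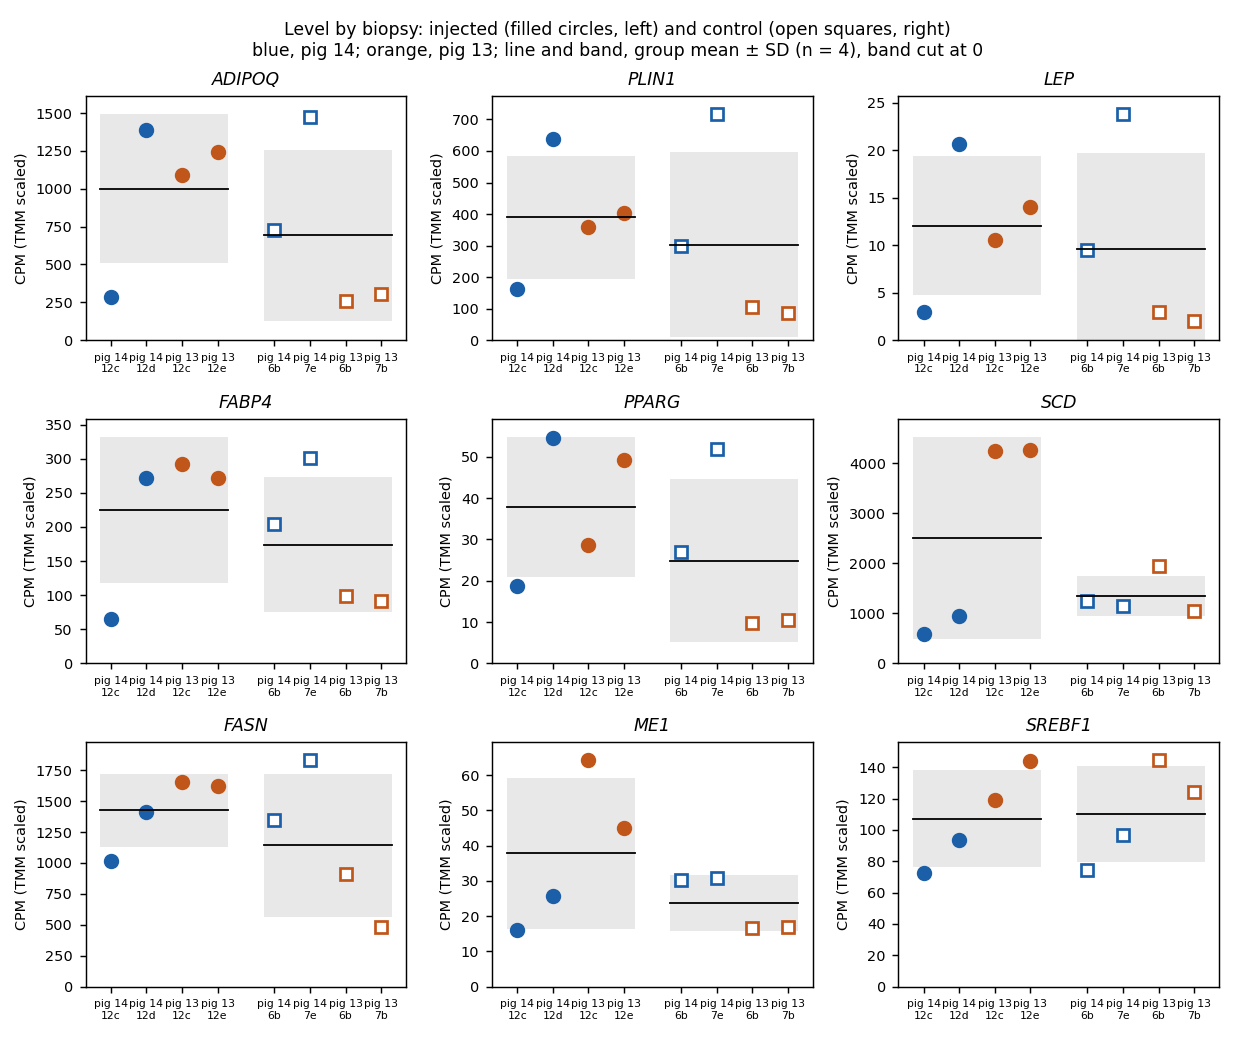
CPM after TMM scaling of 9 genes in each biopsy, with injected sites as filled circles on the left and control sites as open squares on the right, pig 14 in blue and pig 13 in orange; lines and bands are the group mean ± SD over 4 biopsies. The injected and control values overlap in all 9 panels, and for SCD the injected pig 13 biopsies, at 4241 and 4260.0 CPM, stand above all others.

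Enzymes that assemble triglyceride fell into 2 kinds. DGAT2, which adds the last fatty acid, had 97.1 and 188 CPM in pig 14 and 232 and 237 CPM in pig 13 at injected sites, against 232 and 304 CPM in pig 14 and 114 and 129.5 CPM in pig 13 at control sites. Both injected biopsies of pig 14 lay below its controls, while both of pig 13 lay above theirs, and the log2 fold change over both pigs was 0.017 ± 0.43. GPD1, which makes glycerol phosphate from glucose, followed ADIPOQ over a range of 29.4 to 75.3 CPM with 0.39 ± 0.37. The others varied less or differently. DGAT1, which catalyses the same step as DGAT2, ran between 8.80 and 16.0 CPM (-0.081 ± 0.16), AGPAT2, the lysophosphatidate acyltransferase lost in an inherited lipodystrophy of humans, between 33.0 and 44.7 CPM (0.14 ± 0.089), and GPAM, the mitochondrial acyltransferase of the first step, between 28.4 and 53.3 CPM (-0.20 ± 0.15). PCK1, which supplies glycerol phosphate during fasting, was low, at 3.42 and 10.7 CPM in pig 14 and 3.00 and 3.78 CPM in pig 13 at injected sites, against 8.06 and 12.6 CPM in pig 14 and 2.06 and 6.77 CPM in pig 13 at control sites (-0.47 ± 0.45). DGAT1 shares 54.5% of its annotated length with HSF1 on the other strand. No source used here says if reads were counted by strand or how shared reads were treated. How the overlap affects the counts of such pairs therefore cannot be told.

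The enzymes of fatty acid synthesis included SCD and FASN, which had the highest mean CPM of the list in both groups, not corrected for gene length. SCD (ENSSSCG00000010554, chromosome 14, 111461560 to 111478031), the desaturase that makes oleate from stearate, had 579 and 951 CPM in pig 14 and 4241 and 4260.0 CPM in pig 13 at injected sites, against 1238 and 1151 CPM in pig 14 and 1947 and 1049.7 CPM in pig 13 at control sites. The injected pig 13 biopsies stood above every other, and the injected pig 14 biopsies were the 2 lowest. SCD averaged 2507 ± 2018 CPM at injected sites and 1346 ± 408 CPM at control sites (SD, n = 4 each), with a log2 fold change of 0.43 ± 0.48. FASN (ENSSSCG00000029944, chromosome 12, 920507 to 937559), the fatty acid synthase, had 1015 and 1413 CPM in pig 14 and 1657 and 1624 CPM in pig 13 at injected sites, against 1348 and 1832 CPM in pig 14 and 913 and 479 CPM in pig 13 at control sites, and its lowest biopsy was the pig 13 control from site 7b. ME1, the malic enzyme that supplies NADPH, had 16.1 and 25.6 CPM in pig 14 and 64.3 and 45.1 CPM in pig 13 at injected sites, against 30.4 and 30.8 CPM in pig 14 and 16.6 and 16.8 CPM in pig 13 at control sites, with the same 2 biopsies on top as SCD. THRSP, a small nuclear and cytosolic regulator of lipogenesis known as Spot 14, had 16.4 and 49.3 CPM in pig 14 and 105 and 96.5 CPM in pig 13 at injected sites, against 50.01 and 67.5 CPM in pig 14 and 21.0 and 38.0 CPM in pig 13 at control sites. THRSP shares 59.2% of its annotated length with NDUFC2 on the other strand, and ACACA 15.1% with AATF. Their counts may be too high or too low for this reason, which was not tested. ACLY, which makes cytosolic acetyl-CoA, ran between 155 and 289 CPM, ELOVL6, which lengthens palmitate, between 159.6 and 329.7 CPM, and ACACA, the carboxylase that makes malonyl-CoA, between 117 and 163 CPM. All 7 had a log2 fold change above 0, at 0.42 ± 0.37 for FASN, 0.59 ± 0.51 for ME1, 0.47 ± 0.69 for THRSP, 0.31 ± 0.16 for ACLY, 0.34 ± 0.27 for ELOVL6 and 0.13 ± 0.13 for ACACA, and none was called. Without the pig 13 control from site 6b the THRSP value was -0.033.

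The transcription factors split in the same way. PPARG (ENSSSCG00000011579, chromosome 13, 68302655 to 68433947), the master regulator of fat cells, had 18.7 and 54.7 CPM in pig 14 and 28.7 and 49.4 CPM in pig 13 at injected sites, against 27.0 and 52.0 CPM in pig 14 and 9.85 and 10.6 CPM in pig 13 at control sites, close to the order of PLIN1, and a log2 fold change of 0.90 ± 0.60. CEBPA, its partner, which keratinocytes and sebocytes also express, ran only between 101 and 193 CPM and had -0.17 ± 0.18. SREBF1 (ENSSSCG00000033626, chromosome 12, 60733907 to 60751265), the factor that drives fatty acid synthesis genes, had 72.6 and 93.4 CPM in pig 14 and 119 and 144 CPM in pig 13 at injected sites, against 74.5 and 96.6 CPM in pig 14 and 145 and 124 CPM in pig 13 at control sites. All pig 14 biopsies lay below all pig 13 biopsies, whatever the treatment, and the log2 fold change was -0.037 ± 0.12 (95% confidence interval -0.31 to 0.24). MLXIPL, the glucose-responsive factor ChREBP, had 4.51 to 22.5 CPM over the biopsies and 0.29 ± 0.51. PAQR9, of the progestin and adipoQ receptor family, had 30.3 and 37.6 CPM in pig 14 and 37.8 and 40.2 CPM in pig 13 at injected sites, against 39.0 and 35.0 CPM in pig 14 and 17.1 and 16.3 CPM in pig 13 at control sites. Its pig 13 controls were the 2 lowest biopsies, the other 6 lay within 30.3 to 40.2 CPM, and its log2 fold change was 0.55 ± 0.26 (95% confidence interval -0.054 to 1.15).

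**Figure D3:**
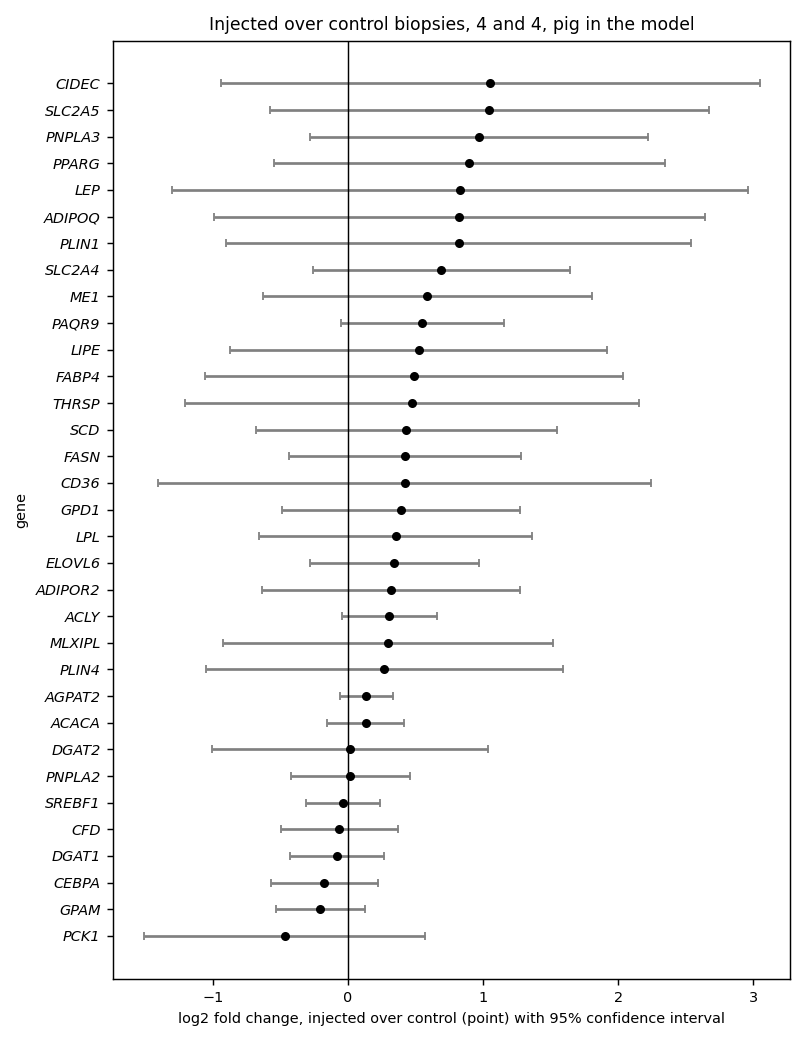
Log2 fold change of injected over control biopsies for the 33 tested genes, with 95% confidence intervals from edgeR's fit with the pig in the model. Every interval includes 0, and those of LEP, CIDEC, ADIPOQ and CD36 are the widest while those of AGPAT2, SREBF1 and ACACA are the narrowest.

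Levels of different genes can be compared only per length. In CPM per kilobase (RPKM, from scaled CPM and the authors' gene length), the mean over 8 biopsies was 329 for SCD, 227 for CFD, 220.2 for ADIPOQ, 152 for FASN and 128 for FABP4. PLIN1 had 83.4 RPKM and PNPLA2 70.3 RPKM. The 7 genes with the lowest mean were LEP with 3.36 RPKM, PNPLA3 with 3.24, DGAT1 with 3.07, MLXIPL with 2.64, SLC2A5 with 2.11, PCK1 with 1.45 and the untested RETN with 0.104 RPKM. The DGAT1 value may be affected by its overlap with HSF1. The order of SCD, CFD and ADIPOQ was not fixed, since SCD ranged between 98.9 and 728 RPKM over the biopsies, CFD between 141 and 287 RPKM and ADIPOQ between 67.0 and 384 RPKM.

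How closely a gene followed ADIPOQ across the 8 biopsies was described by the correlation of log2 CPM, which has no p here because the biopsies share 2 animals. Of the other 32 genes, 12 had r above 0.9 (37.5%), against 1.02% of all genes tested, and the median was 0.816, against -0.008. The closest were GPD1 (r = 0.98, rho = 0.98), LEP (r = 0.97, rho = 0.93), LIPE (r = 0.97, rho = 0.98), ADIPOR2 (r = 0.97, rho = 0.93), CD36 (r = 0.97, rho = 0.98) and FABP4 (r = 0.97, rho = 0.83). They belong to different roles: glycerol phosphate synthesis, a hormone and a receptor, a lipase and fatty acid uptake. The droplet coat transcripts PLIN1, at r = 0.96, rho = 0.93, and CIDEC, at r = 0.95, rho = 0.90, came next. Genes of fatty acid synthesis followed less closely, with a median r of 0.772. THRSP had r = 0.85, rho = 0.69, FASN r = 0.82, rho = 0.83 and ME1 r = 0.78, rho = 0.69. ELOVL6 had r = 0.77, rho = 0.62 and ACACA r = 0.71, rho = 0.67. The lowest of them were ACLY at r = 0.48, rho = 0.43 and SCD at r = 0.38, rho = 0.10. CFD (r = 0.28, rho = 0.26), AGPAT2 (r = 0.11, rho = 0), SREBF1 (r = -0.028, rho = -0.14) and GPAM (r = -0.12, rho = -0.19) did not follow it.

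Counts relative to ADIPOQ restate these correlations as levels and are no separate evidence. LEP counts per 100 ADIPOQ counts were 1.06 and 1.49 in pig 14 and 0.967 and 1.13 in pig 13 at injected sites, against 1.31 and 1.61 in pig 14 and 1.15 and 0.666 in pig 13 at control sites. FABP4 counts per 100 ADIPOQ counts were 22.9 and 19.5 in pig 14 and 26.8 and 21.8 in pig 13 at injected sites, against 28.2 and 20.4 in pig 14 and 38.1 and 30.0 in pig 13 at control sites. Both ratios varied less than ADIPOQ itself, which varied 5.73-fold. SCD counts per 100 ADIPOQ counts were 204 and 68.5 in pig 14 and 388 and 343 in pig 13 at injected sites, against 170.3 and 77.9 in pig 14 and 756 and 341 in pig 13 at control sites. SREBF1 counts per 100 ADIPOQ counts were 25.6 and 6.73 in pig 14 and 10.9 and 11.6 in pig 13 at injected sites, against 10.3 and 6.54 in pig 14 and 56.1 and 40.3 in pig 13 at control sites. The SCD and SREBF1 ratios were highest in the pig 13 control from site 6b, where ADIPOQ was lowest, and lowest at the pig 14 sites 12d and 7e, where ADIPOQ was highest, as a ratio to ADIPOQ gives for any gene that does not follow it.

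**Figure D4:**
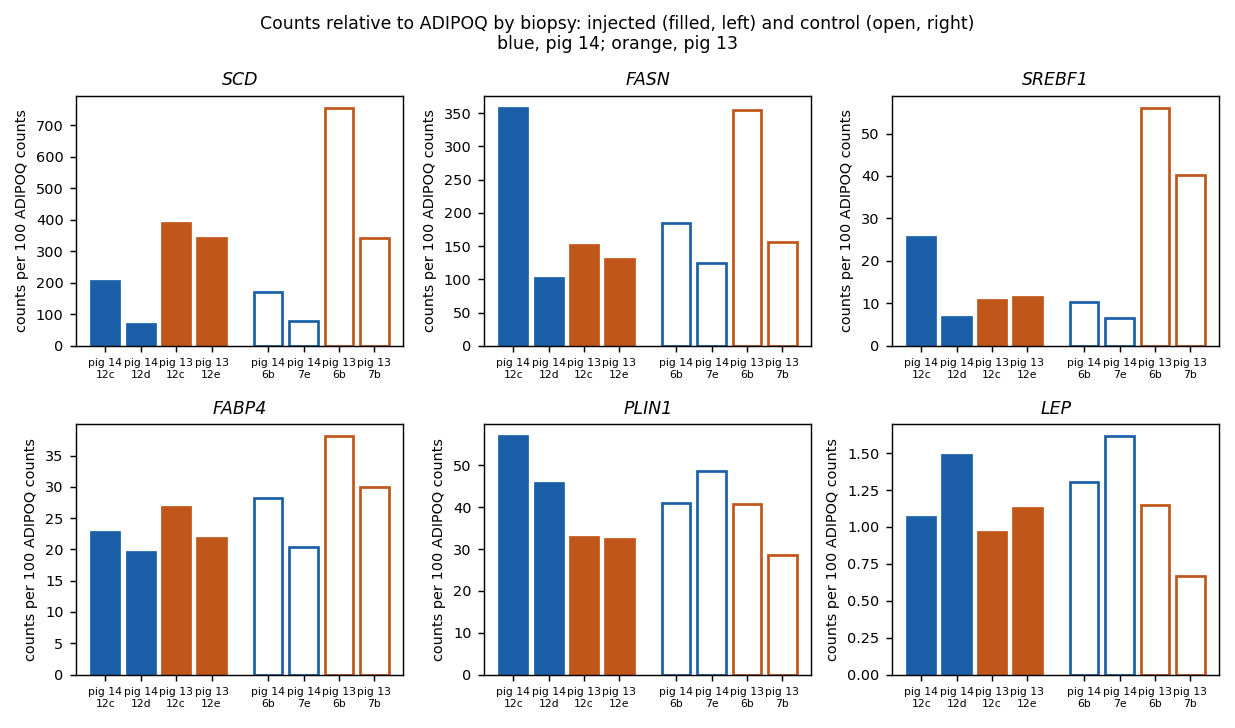
Counts of 6 genes per 100 ADIPOQ counts in each biopsy, injected sites filled on the left and control sites open on the right, pig 14 in blue and pig 13 in orange. The LEP bars lie between 0.67 and 1.61 counts and the FABP4 bars between 19.5 and 38.1 counts, whereas the SCD bars run between 68.5 and 756 counts.

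Outside the list, the 10 genes that followed ADIPOQ most closely (symbol known, mean of at least 1 CPM) were PLAAT3, MTURN, AIFM2, ORMDL3, SDR16C5, CHPT1, MMD, PLSCR4, CYP4V2 and AKT2, with r between 0.98 and 0.99 over 8 biopsies. AKT2, the kinase that relays insulin signals in fat cells and muscle, had 117 and 195 CPM in pig 14 and 178 and 198 CPM in pig 13 at injected sites, against 145 and 217 CPM in pig 14 and 114 and 121 CPM in pig 13 at control sites. ORMDL3, a regulator of sphingolipid synthesis in the endoplasmic reticulum, had 59.8 and 148 CPM in pig 14 and 112 and 123 CPM in pig 13 at injected sites, against 96.9 and 155 CPM in pig 14 and 60.3 and 57.9 CPM in pig 13 at control sites. Both were low at site 12c of pig 14 and in the pig 13 controls. They were chosen for following ADIPOQ over these same biopsies, so this is no separate evidence. Their log2 fold changes were 0.23 ± 0.24 and 0.36 ± 0.38.

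The injected sites stood mostly above their controls in pig 13 and mostly below or among them in pig 14. The log2 fold change was above 0 for 3 of 33 genes in pig 14 and for 28 of 33 in pig 13, and 25 genes were below 0 in pig 14 and above 0 in pig 13. Its median was -0.35 in pig 14 and 1.16 in pig 13, beside -0.015 and -0.011 over all genes. In pig 14 both injected biopsies lay below both controls for 6 of 33 genes (21% of all genes) and above both for 0 (20.5%). In pig 13 both injected biopsies lay above both controls for 26 of 33 genes (18.2% of all genes) and below both for 0 (16.6%). Each within-pig value rests on 2 injected and 2 control sites, and in pig 14 the 2 injected sites lay far apart. Many of the 33 genes vary together across biopsies, so these counts of genes are not counts of independent results.

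Whether the response differed between the animals was asked with an interaction term, the log2 fold change in pig 14 minus that in pig 13, which compares these 2 pigs only. It was above 0 for 0 of 33 genes, against 49.7% of all genes, with a median of -1.45 beside -0.0031 over all genes. As many of these genes vary together across biopsies, their signs are not independent. Of the 33 genes edgeR called 0 (0% of all genes, smallest adjusted p = 0.25). At an unadjusted p under 0.05 there were 12, all with a lower change in pig 14, against 8.22% of all genes (3.81% higher and 4.41% lower). DESeq2 called a lower change in pig 14 for 6 of 33, where 0.369% of all genes were called lower. It called a higher change for 0, where 0.143% were, or 0.512% in all. The 6 genes were ME1, SLC2A5, SCD, PAQR9, DGAT2 and FASN, namely enzymes of lipid synthesis, the fructose transporter and PAQR9.

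ME1 had log2 fold changes of -0.55 ± 0.23 in pig 14 and 1.71 ± 0.23 in pig 13, an interaction of -2.26 ± 0.32 (adjusted p = 0.25 by edgeR and 1.5e-06 by DESeq2). PAQR9 had -0.12 ± 0.14 in pig 14 and 1.23 ± 0.14 in pig 13, an interaction of -1.35 ± 0.20 (adjusted p = 0.25 by edgeR and 0.0009 by DESeq2). SLC2A5 had -0.50 ± 0.35 in pig 14 and 2.59 ± 0.37 in pig 13, with -3.09 ± 0.51 (adjusted p = 0.306 by edgeR and 2.1e-05 by DESeq2). In these 3 genes the pig 13 value was several times its standard error, and the pig 14 value was nearer 0. SCD had -0.64 ± 0.31 in pig 14 and 1.504 ± 0.32 in pig 13 (interaction -2.15 ± 0.45, adjusted p = 0.388 by edgeR and 0.000117 by DESeq2). DGAT2 had -0.91 ± 0.28 in pig 14 and 0.94 ± 0.28 in pig 13 (interaction -1.86 ± 0.40, adjusted p = 0.439 by edgeR and 0.00108 by DESeq2). FASN, named because DESeq2 called it, had -0.39 ± 0.31 in pig 14 and 1.24 ± 0.31 in pig 13 (interaction -1.63 ± 0.44, adjusted p = 0.469 by edgeR and 0.0151 by DESeq2). ADIPOQ had -0.40 ± 0.74 in pig 14 and 2.05 ± 0.77 in pig 13, with an interaction of -2.45 ± 1.06 that neither tool called (adjusted p = 0.624 by edgeR and 0.478 by DESeq2). ADIPOQ thus had a larger difference than ME1 and PAQR9 and also a larger spread between sites of a pig.

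These calls turned on the tool and on single biopsies. With no filter on low counts edgeR called ME1 (adjusted p = 0.0472), PAQR9 (adjusted p = 0.0163) and SLC2A5 (adjusted p = 0.0155). Without the pig 13 control from site 6b it called 5 of the 33 genes, ME1, SCD, PAQR9, FASN and SLC2A5, and 143 genes higher and 170 lower in all. Without the injected pig 14 biopsy from site 12d it called 4, ME1, DGAT2, SLC2A5 and FABP4, all lower, among 8 lower and 2 higher over all genes.

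**Figure D5:**
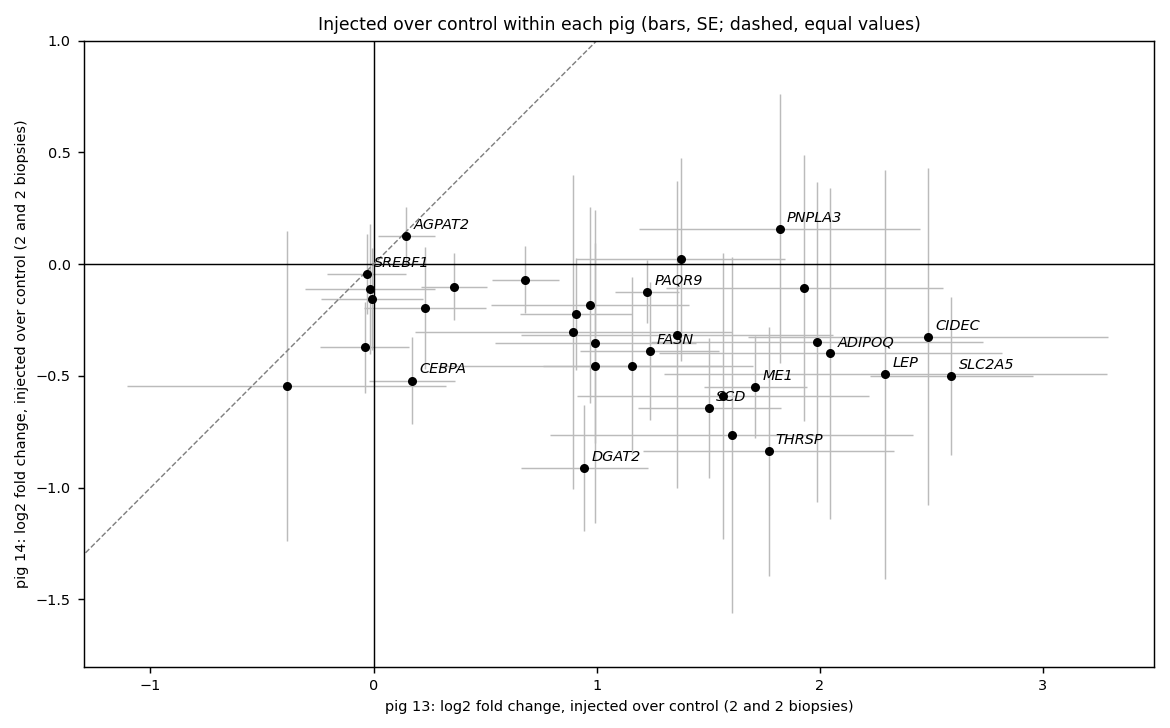
Log2 fold change of injected over control sites in pig 14 (vertical axis) against that in pig 13 (horizontal axis) for the 33 tested genes, each from 2 injected and 2 control biopsies, with SE bars and a dashed line of equal values. All points lie below the dashed line, and 25 lie below 0 in pig 14 and above 0 in pig 13.

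Markers of other skin cells differed between the same sites, and their part in these results was not tested. Summed CPM of the 10 fibroblast matrix genes was 199317 and 143745 in pig 14 and 115416 and 82637 in pig 13 at injected sites, against 203162 and 176765 in pig 14 and 82284 and 22154 in pig 13 at control sites. Summed CPM of the 9 basal keratinocyte genes was 14635 and 12718 in pig 14 and 16239.7 and 16844 in pig 13 at injected sites, against 8488 and 7804 in pig 14 and 14041 and 22474 in pig 13 at control sites. The pig 13 control from site 7b thus had the least matrix and the most basal keratinocyte RNA of all biopsies, beside low fat cell transcripts. The 16 sebaceous gland genes with a row, of 17 listed, summed to 313 and 350 CPM in pig 14 and 383 and 397 CPM in pig 13 at injected sites. At control sites they summed to 359 and 372 CPM in pig 14 and 416 and 277 CPM in pig 13. Of these genes 15 were counted in every biopsy, and none was at 0 in all. The 9 macrophage genes, of which LPL is also on the fat list, summed to between 691 and 983 CPM at injected and between 446 and 1166 CPM at control sites, and the 9 blood endothelial genes to between 672 and 977 CPM at injected and between 615 and 865 CPM at control sites. All 8 skeletal muscle genes with a row, of 12 listed, were counted in every biopsy, at a sum of 25.5 to 28.9 CPM at injected sites and 22.7 to 26.2 CPM at control sites.

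With treatment held, the 2 pigs differed in 1 of the 33 genes. SREBF1 was called lower in pig 14 (log2 difference, pig 14 over pig 13, -0.66 ± 0.12, adjusted p = 0.00898 by edgeR), at 84.3 ± 12.5 CPM in pig 14 and 133 ± 13.3 CPM in pig 13 (SD, n = 4 sites of 1 animal each). That is 1 of 33 lower, where 4.34% of all genes were called lower, and 0 higher, where 6.39% were, or 10.7% in all. The log2 difference was above 0 for 23 of 33 genes, many of which vary together and are not independent, against 49.7% of all genes. SREBF1 was also the only gene of the 33 whose pig 14 biopsies all lay below those of pig 13 (8.73% of all genes), and 0 of 33 lay all above (9.87%). Its call held without any single biopsy, with adjusted p between 0.00869 and 0.0391. SREBF1 shares 24.6% of its annotated length with RAI1 on the other strand. The next genes by p were GPAM (-0.40 ± 0.15), SCD (-1.40 ± 0.48), ACLY (-0.41 ± 0.16) and PCK1 (1.15 ± 0.45), which edgeR did not call (adjusted p between 0.11 and 0.155). DESeq2 called SREBF1 and SCD (adjusted p = 0.0436) lower, where 6.71% of all genes were, and PCK1 (adjusted p = 0.026) higher, where 9.08% were. ADIPOQ had 0.74 ± 0.75 and was not called. Without the pig 13 control from site 7b SCD and GPAM were also called lower, among 743 genes lower in all. Without that from site 6b ACLY was, among 903 genes. Without the injected pig 14 biopsy from site 12c ADIPOR2 was called higher, among 1347 genes higher in all.

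Further genes of the same pathways, from lists outside the 37, were not called between injected and control sites either. Of 26 other adipocyte and lipid droplet genes edgeR called 0 over all genes, with 2 higher (2.39% of all genes) and 0 lower (2.15%) at an unadjusted p under 0.05, and DESeq2 0. Their median was 0.12, and the genes with the smallest p were the perilipin PLIN5 (0.48 ± 0.20), the acyl-CoA synthetase ACSL1 (0.26 ± 0.12) and the lipase coactivator ABHD5 (-0.33 ± 0.16). The median correlation of the 26 genes with ADIPOQ was 0.565, with r = 0.277 for PLIN5, 0.345 for ACSL1 and -0.014 for ABHD5. Of 30 genes of adipocyte regulation and insulin signalling 0 were called by either tool and 1 was higher at an unadjusted p under 0.05, against 2.39% of all genes. That gene was CEBPD, an early factor of fat cell formation that inflammation also induces. CEBPD had 236 and 238 CPM in pig 14 and 326 and 338 CPM in pig 13 at injected sites, against 202 and 215 CPM in pig 14 and 138 and 244 CPM in pig 13 at control sites, so 3 of the 4 controls lay below all injected biopsies and the pig 13 control from site 7b did not (0.49 ± 0.18, adjusted p = 0.964 by edgeR). The insulin receptor substrate IRS1 had 0.21 ± 0.12 and the coactivator PPARGC1B -0.22 ± 0.13.

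Of 21 further fatty acid and glycerolipid enzymes 0 were called by edgeR, 0 at an unadjusted p under 0.05 and 0 by DESeq2, with a median of 0.048. The NADPH-producing enzyme PGD had 56.0 and 74.8 CPM in pig 14 and 117 and 108 CPM in pig 13 at injected sites, against 63.1 and 71.3 CPM in pig 14 and 57.1 and 68.3 CPM in pig 13 at control sites, with the injected pig 13 biopsies on top as for ME1, and a log2 fold change of 0.40 ± 0.19. TALDO1 of the pentose phosphate pathway had 0.31 ± 0.18 and ACSL3 -0.15 ± 0.09. In the interaction 7 of the 21 had a lower change in pig 14 at an unadjusted p under 0.05 (4.41% of all genes) and 1 a higher one (3.81%). EdgeR called 0 of them and DESeq2 called 2, with a lower change. Of 21 cholesterol synthesis genes 0 were called by edgeR or DESeq2, and 2 were lower at an unadjusted p under 0.05, against 2.15% of all genes. MSMO1, a sterol oxidase, had 17.7 and 17.6 CPM in pig 14 and 21.8 and 17.3 CPM in pig 13 at injected sites, against 34.0 and 26.6 CPM in pig 14 and 19.4 and 20.02 CPM in pig 13 at control sites (-0.39 ± 0.17), and the mevalonate pathway kinase PMVK had 0.31 ± 0.15. The median of the 21 genes was -0.061. In the interaction 6 of them had a lower change in pig 14 at an unadjusted p under 0.05 by edgeR (4.41% of all genes) and 0 a higher one (3.81%). Neither edgeR nor DESeq2 called any of them in the interaction. In pig 14 both injected biopsies lay below both controls for 12 of the 21 (21% of all genes) and above both for 1 (20.5%).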

How the data were processed

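RNA of 8 skin biopsies of 2 pigs was measured. Reads were processed with STAR 2.5.1a, featureCounts 1.4.6-p5 (Subread) and bcl2fastq on Sscrofa11.1, per the submitters' processing notes. The authors deposited raw counts per Ensembl gene in 1 table of all biopsies. Their file of each biopsy repeats the counts and adds deposited CPM, scaled to the biopsy's total, and deposited RPKM, which divides CPM by gene length, per the file headers. Only counts were tested, and the gene lengths were used for levels. The file of each biopsy held the same counts as the series table. That of the pig 13 control from site 7b ended after 607 genes, so this biopsy was read from the series table. The 425 genes on several of the 32388 rows had identical counts and were kept once.

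Genes were filtered with filterByExpr (minimum count 10), scaled by TMM and tested with edgeR 4.0.16 in R 4.3.3 (robust quasi-likelihood, treatment and pig in the model, or their interaction), adjusted over 19862 genes. The standard error is the absolute log2 fold change over the square root of F, and 95% intervals use the t distribution. The pig is the block because the labels name the animal. Deviations from the group means had correlations of 0.25 to 0.54 for injected and control sites of 1 pig, and of -0.49 to -0.28 for sites of different pigs. Because the deviations in a group sum to 0, positive values within a pig bring negative values between pigs, which are no separate evidence. DESeq2 1.42.0, its size factors, no filter, no block and leaving out each biopsy were alternatives. The procedure was tested on simulated data. The text names every listed gene, the 10 genes closest to ADIPOQ, the 3 genes of each further list with the smallest p (for cell type lists also the most abundant) and 5 genes each for the interaction and the pig difference; of the cell type lists not every such gene is named, and 1 gene of the further lists is not reported here. The genes and lists were chosen with earlier results of these data known.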

Additional observations from a re-analysis of the deposited data

Results flagged for a closer look

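In 5 of the 66 sets of 4 biopsies examined (33 genes in each group), 1 biopsy stood apart from the other three by Dixon's ratio at its 95% critical value for 4 samples, 0.829, on log2 CPM. About 1 in 20 such sets does so by chance, and genes that vary together are not independent. The injected biopsy from site 12c of pig 14 was low for ADIPOQ (283 CPM, against 1092 to 1388 CPM in the other injected biopsies), FABP4 (64.8 CPM, against 271 to 292 CPM) and CD36 (34.6 CPM, against 155 to 168 CPM). The control from site 7e of pig 14 was high for PNPLA2 (219 CPM, against 140.0 to 148 CPM in the other controls), and the control from site 6b of pig 14 was low for AGPAT2 (33.0 CPM, against 38.4 to 38.8 CPM).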

How the results depend on the processing

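In every alternative run, 0 of the 33 adipocyte and lipogenic genes were called between injected and control sites. Over all genes 7 were called higher and 0 lower, by DESeq2 48 and 10, without the replicate block of the pig 6 and 0, and 3 to 19 higher (19 without the pig 13 control from site 7b, 3 or 4 without sites 12d or 6b of pig 14 or sites 12c or 6b of pig 13) and 0 to 1 lower when a biopsy was left out. Without the replicate block DGAT2 turned to -0.048. Log2 fold changes that turned sign when a biopsy was left out ran -0.12 to 0.21 (PNPLA2), -0.11 to 0.0502 (SREBF1), -0.14 to 0.67 (PLIN4), -0.27 to 0.41 (DGAT2), -0.30 to 0.0075 (CEBPA), -0.17 to 0.074 (DGAT1), -0.25 to 0.16 (CFD), -0.025 to 0.85 (MLXIPL), -0.033 to 1.04 (THRSP) and -0.049 to 1.0 (CD36). Among genes that kept their sign, the range was 0.42 to 1.42 (ADIPOQ), 0.43 to 1.38 (PLIN1), 0.35 to 1.51 (LEP), 0.51 to 1.71 (CIDEC), 0.56 to 1.37 (PPARG), 0.26 to 1.01 (LIPE), 0.16 to 1.02 (FABP4), 0.064 to 0.73 (LPL) and 0.22 to 0.72 (GPD1), highest without site 12c of pig 14 (LIPE without site 7e of pig 14) and lowest without a pig 13 control (PPARG without the injected site 12e of pig 13). For the interaction, edgeR's 0 calls became 24 higher and 62 lower with DESeq2 (6 of the 33 genes, lower), 3 and 5 with no filter (3 of the 33) and 0 to 143 higher and 0 to 170 lower without a biopsy (0 to 5 of the 33), the highest counts without the pig 13 control from site 6b. For pig 14 over pig 13, edgeR called 1270 genes higher and 863 lower, DESeq2 1803 and 1333, and 723 to 1347 higher and 392 to 903 lower were called without a biopsy (fewest without site 12d or 7e of pig 14); among the 33 genes DESeq2 called 1 higher and 2 lower, and leaving out a biopsy gave 0 to 1 higher and 1 to 3 lower. The cause of these shifts was not tested. Scaling by DESeq2's size factors moved the median of all genes by less than 0.1 on the log2 scale in all 3 comparisons. Each within-pig value rests on 2 sites of each kind, and every library held at least 28471089 counts, so depth limits only the lowest genes such as RETN.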

Other observations

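Genes of adipocyte progenitors, the dermal cells from which fat cells form, did not vary with the fat cell genes. The median correlation of the 10 tested genes with ADIPOQ over 8 biopsies was -0.033, beside 0.816 for the adipocyte and lipogenic genes. The median log2 fold change of injected over control was -0.11, 0 of 10 were called by edgeR or DESeq2, and 0 had an unadjusted p under 0.05. The most abundant, PI16, had 335 and 238 CPM in pig 14 and 568 and 422 CPM in pig 13 at injected sites, against 394 and 277 CPM in pig 14 and 494 and 104 CPM in pig 13 at control sites. The stem cell antigen CD34 had 0.19 ± 0.11, DPP4 -0.49 ± 0.25 and the tissue factor gene F3 -0.22 ± 0.10. Of 9 tested genes of thermogenic fat 0 were called by edgeR or DESeq2 and 0 had an unadjusted p under 0.05. EBF2 followed ADIPOQ (r = 0.90, 0.45 ± 0.42), while TBX1 did not (r = -0.073, -0.29 ± 0.24), and ELOVL3 had 0.56 ± 0.39. UCP1 is not analysed here.

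Several marker lists shared the negative interaction sign of the fat cell genes. The median was -0.83 for fibroblast matrix, with a lower change in pig 14 for 3 of 10 genes at an unadjusted p under 0.05 (edgeR, 4.41% of all genes). It was -0.50 for macrophages, -0.36 for smooth muscle and pericytes, -0.33 for sebaceous gland and -0.31 for differentiated keratinocytes. Sweat glands (0.89) and blood endothelium (0.31) lay above 0. Basal keratinocyte genes had interaction values of the other sign than the fat cell genes, with a median of 0.91. Of 9 tested genes 5 had a higher change in pig 14 at an unadjusted p under 0.05 (3.81% of all genes), 0 were called by edgeR and 3 by DESeq2 (0.143% of all genes). COL17A1, a hemidesmosome collagen, had 0.96 ± 0.23 in pig 14 and -0.32 ± 0.23 in pig 13, an interaction of 1.28 ± 0.32 (adjusted p = 0.439 by edgeR and 0.0119 by DESeq2). In pig 14 KRT5 had 6419 and 5673 CPM at injected and 3597 and 3171 CPM at control sites, and in pig 13 8087 and 8267 CPM at injected and 6309 and 10850 CPM at control sites. Of the other marker lists, 0 genes were called between injected and control sites by edgeR or DESeq2, with medians of -0.45 for differentiated keratinocytes (4 of 10 lower at an unadjusted p under 0.05, against 2.15% of all genes), -0.09 for sebaceous gland, 0.31 for hair follicle, 0.22 for fibroblast matrix, 0.11 for skeletal muscle (1 of 8 higher at that p, against 2.39% of all genes), 0.18 for smooth muscle and pericytes (1 of 7 higher, against the same share), 0.10 for blood endothelium (2 of 9 higher, likewise), 0.025 for macrophages and -0.043 for sweat glands.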
